A study of Mus musculus with 14 samples.

Results

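Genes for the nuclear-encoded subunits of oxidative phosphorylation were examined in RNA-seq of embryonic hippocampus from a pair of Down syndrome mouse models. They were found by symbol (Nduf, Sdh, Uqcr, Cox and Atp5 families), without Atp5j and Atp5o, which are triplicated in one of the models. The rule found 78 symbols, and 77 of them were matched to a row of the gene table, which holds 59796 assembled loci. They comprised 37 genes of complex I, 4 of complex II, 8 of complex III, 15 of complex IV and 13 of complex V. The remaining symbol, Cox8c, had no row of its own, as its transcript was listed at 0 in every library. Subunits encoded by mitochondrial DNA were not analysed here.

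The 189N3 line carries an extra copy of the kinase gene Dyrk1a, and the Dp(16)1Yey line an additional copy of the stretch of mouse chromosome 16 from Lipi to Zfp295. The hippocampi came from embryos of days E16 to E18, with 3 libraries of 189N3 and 4 of Dp(16)1Yey, beside 3 and 4 of the respective wild-type littermates. The methods describe heterozygous parents crossed with C57BL6 mice for the cultures of the same lines, and the labels give neither sex nor litter. Both changes are carried in the germ line and are therefore present in every cell type of the tissue, and 189N3 is a single transgenic line. The protocol counts 3 or 4 embryos for each genotype, which matches the number of libraries in each group, and the p-values measure the spread between these libraries.

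Oxidative phosphorylation takes place in the inner mitochondrial membrane. Complexes I and II pass electrons from NADH and succinate to ubiquinone, complex III passes them on to cytochrome c, and complex IV passes them to oxygen. Complexes I, III and IV pump protons, and complex V, the ATP synthase, uses the proton gradient to make ATP. Neurons draw most of their ATP from this pathway once they mature, and the factors NRF1, GABPA (an ETS factor), YY1 and the oestrogen-related receptors are known to act on many of the nuclear subunit genes.

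The promoters of these genes are shown first, to let the sequences be read beside the levels given later. RefSeq promoter windows (GRCm38.p6) of 300 bases, from 250 before to 50 after the start, were found for 65 of the 77 genes, 69 windows in all. They were searched on both strands for 6 short motifs. The NRF1 core GCGCATGCG was found in 11.6% of these windows, against 1.75% of all 32851 windows. It reads nearly the same on both strands, so overlapping matches were counted as 1 window. The ETS core CCGGAAG was found in 21.7% against 8.86%, the YY1 core AAGATGGC in 13% against 2.75%, and the oestrogen-related receptor site CAAGGTCA in 5.8% against 1.56%. The SP1 box GGGCGG (39.1% against 35.7%) and the CCAAT box (43.5% against 37.4%) were about as frequent as in all windows. These are matches of letters and no evidence of binding.

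Of the 8 genes with an NRF1 core, 3 are shown over the 100 bases before the start, with the core and its overlapping match on the other strand in capitals. They are Ndufa11, an accessory subunit of complex I (chr17:56717662-56717761, plus strand), Atp5g2, which encodes the ring-forming subunit c of the ATP synthase (chr15:102671048-102671147, minus strand), and Atp5k, its subunit e (chr5:108434400-108434499, minus strand).
Ndufa11: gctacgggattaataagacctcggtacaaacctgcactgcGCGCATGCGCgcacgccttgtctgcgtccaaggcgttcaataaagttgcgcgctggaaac
Atp5g2: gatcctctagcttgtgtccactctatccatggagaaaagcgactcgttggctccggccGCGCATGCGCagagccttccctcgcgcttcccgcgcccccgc
Atp5k: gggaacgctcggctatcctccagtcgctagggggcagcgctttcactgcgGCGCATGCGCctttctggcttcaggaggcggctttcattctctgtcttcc

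A further 5 genes, 1 from each of complexes I to V, show the ETS core in capitals over the same 100 bases, read on either strand. They are Ndufb7 (chr8:83566658-83566757, plus strand), Sdhd, a membrane anchor of complex II (chr9:50603850-50603949, minus strand), Uqcr11, the smallest subunit of complex III (chr10:80406822-80406921, minus strand), Cox6b1 of complex IV (chr7:30626115-30626214, minus strand) and Atp5h, subunit d of the ATP synthase (chr11:115419920-115420019, minus strand).
Ndufb7: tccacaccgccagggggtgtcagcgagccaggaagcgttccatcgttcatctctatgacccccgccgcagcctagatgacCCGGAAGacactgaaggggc
Sdhd: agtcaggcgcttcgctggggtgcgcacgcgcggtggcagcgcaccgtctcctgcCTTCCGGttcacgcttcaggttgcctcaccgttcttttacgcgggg
Uqcr11: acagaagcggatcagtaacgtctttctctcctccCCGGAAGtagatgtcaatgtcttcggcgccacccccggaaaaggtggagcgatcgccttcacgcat
Cox6b1: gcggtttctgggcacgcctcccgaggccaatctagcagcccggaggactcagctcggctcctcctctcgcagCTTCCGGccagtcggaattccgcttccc
Atp5h: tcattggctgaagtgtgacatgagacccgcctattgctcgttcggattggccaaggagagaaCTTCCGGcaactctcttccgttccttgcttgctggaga

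The YY1 core stood in another place. In 8 of the 9 genes that hold it, it began after the start, between 22 and 38 bases downstream of the start base, and in all 8 it was read on the strand of the gene. Short stretches of 30 bases around it are shown for 4 complex I genes, with the core in capitals: Ndufa3 (chr7:3617384-3617413, plus strand), Ndufc1 (chr3:51408915-51408944, minus strand), Ndufs4 (chr13:114388045-114388074, minus strand) and Ndufs6 (chr13:73328433-73328462, minus strand). In each the core contains the triplet ATG.
Ndufa3: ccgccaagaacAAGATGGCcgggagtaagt
Ndufc1: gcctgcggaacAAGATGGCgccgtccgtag
Ndufs4: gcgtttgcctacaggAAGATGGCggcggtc
Ndufs6: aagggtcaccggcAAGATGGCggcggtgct

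The libraries held between 20809135 and 29098454 fragments. Deposited values are fragments per locus divided by 1 factor per library, and they are called values or levels here. Dyrk1a stood between 3938 and 5877 in 189N3 and between 2126 and 2977 in their littermates. Its values were 4781, 2124, 3600 and 3044 in Dp(16)1Yey replicates 0 to 3, and between 2397 and 3175 in their littermates. Over 88 loci of the triplicated region the median log2 difference to the mean of the littermates was 0.69, 0.57 and 0.39 in replicates 0, 2 and 3 and 0.11 in the library labelled Dp(16)1Yey replicate 1. The littermates themselves lay between -0.13 and 0.12. On the same measure the 189N3 libraries, which lack the duplication, stood at -0.02, 0.00 and 0.39, so that replicate 2 of 189N3 was level with replicate 3 of Dp(16)1Yey. Among the wild-type littermates of Dp(16)1Yey, replicates 0 and 1 were nearly alike, as were replicates 2 and 3. In chi-square terms, which are squared differences, the median locus of these pairs stood at 1.53 and 1.8 times counting noise, against 6.94 to 59.6 times in all other pairs within a group. Results in Dp(16)1Yey are therefore given with and without these libraries. Of 10 markers of hippocampus and cortex, all were detected, from a mean of 127 (Emx1) to 13980 (Neurod6), and the 10 neuronal markers summed to between 98203 and 200209. Muscle, skin, erythroid and connective tissue markers were also present, as given beside the results below. The 7 choroid plexus markers summed to between 1308 and 16200 per library, and 5 striatal markers to between 85.7 and 841. The part of these 2 lists in the subunit values was not tested.

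In wild-type and transgenic hippocampus alike, transcripts of nearly all subunits were abundant. Per kilobase of principal transcript, the ATP synthase had the highest median level over its 13 genes (2697), followed by complex IV (1842), complex III (1135), complex II (1065) and complex I (905). These are means over 14 libraries on the scale of deposited values per kilobase. The SDs given with levels are over the same libraries and include movement that the genes share, so they do not test whether genes differ. Of the 77 genes, 74 had a mean of at least 10 and were tested, and the other 3 (Cox6a2, Cox7b2 and Cox8b) were close to 0.

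Within the ATP synthase, Atp5b, the catalytic beta subunit, led with 7971 ± 1395 per kilobase (SD, n = 14 libraries), ahead of its partner Atp5a1, the alpha subunit, at 4266 ± 855. The gap between them exceeded the SD of either. Atp5l, Atp5c1 (the gamma subunit of the central stalk) and Atp5h followed within 1 SD of Atp5a1. The 3 genes that encode the identical mature subunit c stood at 2758 ± 716 (Atp5g2), 2128 ± 489 (Atp5g1) and 1964 ± 459 (Atp5g3). Neighbours in this order differed by less than the larger of their SDs, but Atp5g2 exceeded Atp5g3 by more than the SD of either. Atp5d, the delta subunit of the central stalk, was the lowest at 659 ± 195.

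In complex I, Ndufa4 was highest at 3588 ± 1228 per kilobase. This protein was first assigned to complex I and is now also counted with complex IV. The core subunits, which carry the flavin and the iron-sulphur clusters or bind ubiquinone, stood below it. Of those given here, Ndufv2 stood at 1242 ± 427 (its own transcripts only), Ndufs1 at 954 ± 202, Ndufs3 at 873 ± 164, Ndufv1 at 711 ± 132, Ndufs8 at 508 ± 132 and Ndufs7 at 254 ± 73.4. Neighbours in this order differed by less than the larger of their SDs, except that Ndufs8 lay below Ndufv1, and Ndufs7 below Ndufs8, by more than the SD of either. Ndufa4l2, a relative of Ndufa4 known to be induced by hypoxia, was lowest at 18.9 ± 9.06.

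In complex II the iron-sulphur subunit Sdhb (1351 ± 284 per kilobase), the anchor Sdhd (1203 ± 290) and the flavoprotein Sdha (926 ± 143, own transcripts only) stood above the other anchor Sdhc (387 ± 75.7). In complex III the hinge protein Uqcrh was highest at 5842 ± 1918. The core proteins Uqcrc2 (2473 ± 705) and Uqcrc1 (770 ± 224) differed from each other by more than their SD, and the Rieske protein Uqcrfs1 lay between them at 1078 ± 221. Uqcrq was far below all others at 70.3 ± 25.9, the locus named for it holding a mean of only 107 units. A locus of 48.6 units lay on the opposite strand of it. In all, 46 of the 77 genes had an opposite-strand locus in the transcript map, and in 36 of them it reached more than 10% of the gene's own value.

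Complex IV has isoforms that are known to prefer muscle or testis, and these were low in hippocampus. Cox6b1 stood at 4805 ± 1539 per kilobase and its testis isoform Cox6b2 at 21.9 ± 9.06. Cox7a2 (3608 ± 1246) and Cox7a2l (2890 ± 587), the latter a factor in joining complexes III and IV, were far above the heart and muscle isoform Cox7a1 (110 ± 41.3, own transcripts only). Cox6a1 (2314 ± 600), Cox7b (1802 ± 647) and Cox8a (2211 ± 557) were high, whereas the highest value in any library was 2.42 for the muscle isoform Cox6a2, 4.51 for the testis isoform Cox7b2 and 1.73 for the muscle isoform Cox8b. Skeletal muscle markers, of which 9 of 10 were detected and none was at 0 throughout, summed to between 42.5 and 683 per library, and their part in the low values was not tested.

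**Figure D1:**
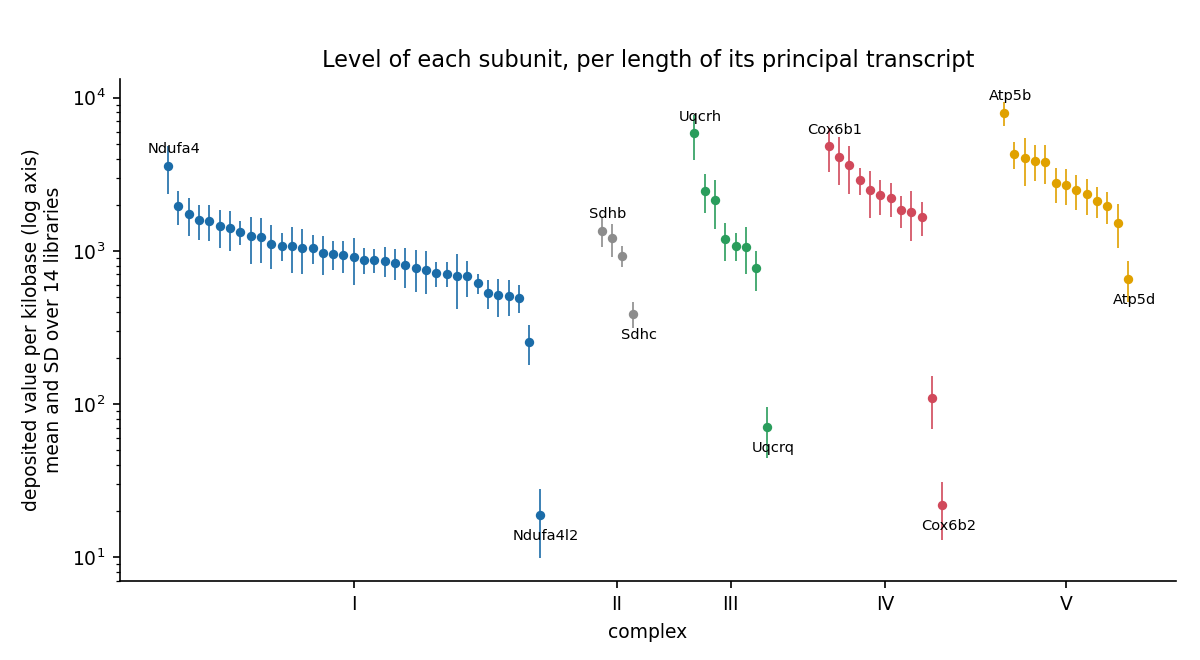
Level of each of the 74 tested subunit genes per kilobase of its principal transcript, by complex, on a log axis. Points are means and bars SDs over 14 libraries. Atp5b was highest of all at 7971, and Ndufa4l2 and Cox6b2 were lowest at 18.9 and 21.9.

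The subunits moved together from library to library, and by more than they differed between genotypes. Each gene's log2 level was set against its own mean over 14 libraries, and the median of these deviations was taken over the 74 genes. It was 0.16, -0.27 and 0.50 in 189N3 replicates 0 to 2 and 0.05, 0.21 and 0.51 in their littermates. In Dp(16)1Yey replicates 0 to 3 it was -0.05, 0.42, -0.48 and -0.23, and in their littermates it was -0.47, -0.49, 0.14 and 0.15. The transgenic libraries thus overlapped with those of their littermates in both lines, and the whole range was 0.99 on the log2 scale. As these are bulk samples, fewer cells of a type and less RNA per cell cannot be told apart. The 77 genes together made up between 0.402% and 0.648% of the values of a library.

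Single genes followed the same order. In 189N3 all 74 genes had their highest value in replicate 2, and 71 had their lowest in replicate 1. Over all loci tested, the same libraries were highest in 40.8% and lowest in 33.8%. In Dp(16)1Yey, 60 of the 74 were highest in replicate 1 and 55 were lowest in replicate 2, against 24.8% and 19.1% of all loci. In the littermates of Dp(16)1Yey, each gene was lowest in replicate 0 (37 genes) or replicate 1 (37 genes), and 73 were highest in replicate 2 or 3. Of all loci, 21% and 24% were lowest in replicates 0 and 1, and 21.8% and 23.9% highest in replicates 2 and 3. When the median subunit of each library was subtracted, the median SD of a gene over 14 libraries went from 0.39 to 0.20 on the log2 scale, and 70 of the 74 genes became less variable. On this relative scale the Rieske protein gene Uqcrfs1 (SD 0.08), Sdhb (0.09) and Atp5g1 (0.10) varied least, and the low genes Cox6b2 (0.67), Ndufa4l2 (0.54) and Uqcrq (0.39) varied most.

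Complexes I, III, IV and V deviated much alike in each library. Complex II differed in replicate 2 of the 189N3 littermates, where it stood at 0.15 against 0.51 over all subunits. This was not particular to complex II. In the same library the 7 core subunits of complex I stood at 0.14 and its 30 other subunits at 0.57. The median deviation covered 1.28 on the log2 scale in complex III, 1.18 in complex IV, 1.01 in complex I, 1.00 in complex V and 0.70 in complex II. The 7 core subunits of complex I covered 0.77 and its 30 other subunits 1.09. By length, the 24 genes with the shortest transcripts (315 to 596 nucleotides) covered 1.25 and the 24 with the longest (1076 nucleotides or more) 0.90.

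Other gene groups were followed over the same libraries. Cytosolic ribosomal proteins, which are also short and abundant transcripts (77 genes tested), deviated by 0.12, -0.41 and 0.40 in 189N3 and by 0.03, 0.10 and 0.66 in their littermates. In Dp(16)1Yey they deviated by -0.09, 0.65, -0.51 and -0.07, and in their littermates by -0.54, -0.55, 0.12 and 0.15, a range of 1.22 in all. The range was 0.68 for 69 mitochondrial ribosomal proteins, 0.65 for 40 assembly factors of the complexes, 0.70 for 16 enzymes of the TCA cycle and 0.77 for 17 glycolytic genes. For 16 regulators of mitochondrial gene expression it was 0.38. Glycolytic genes did not follow the subunits throughout, since they stood at -0.25 in replicate 2 of the 189N3 littermates and at 0.30 in Dp(16)1Yey replicate 0, where the subunits stood at 0.51 and -0.05. The regulators stood at -0.15 in the first of these libraries. The part of RNA quality, transcript length or tissue makeup in the shared movement was not tested.

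**Figure D2:**
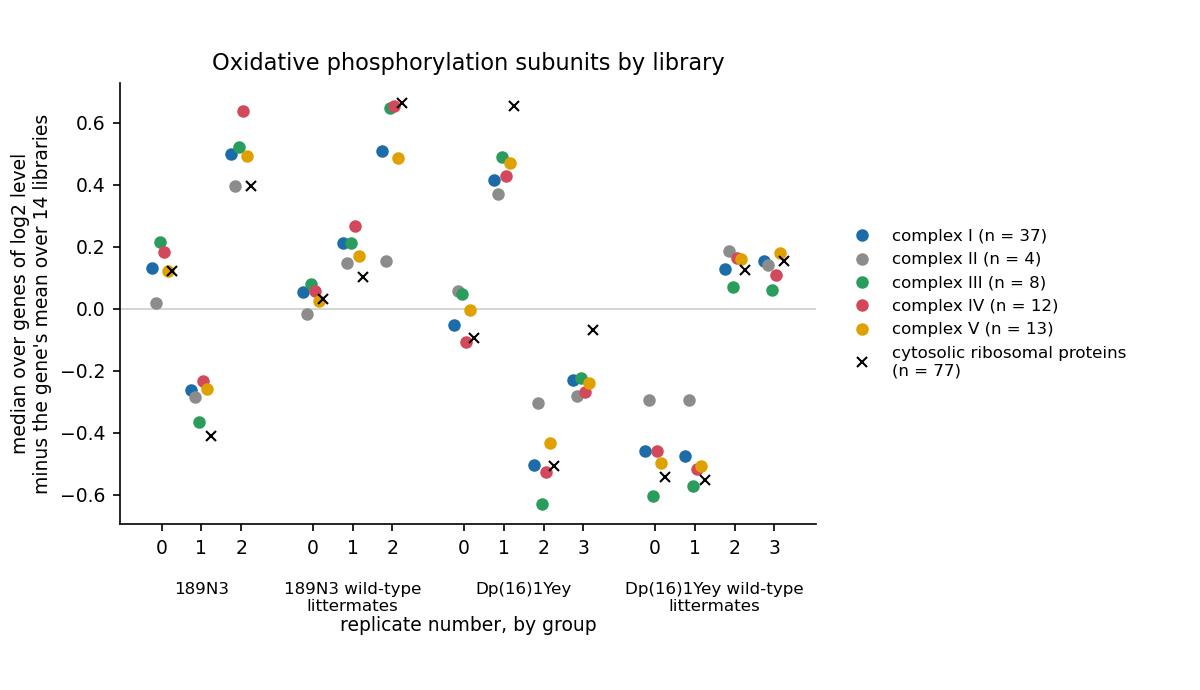
Median deviation of log2 level from each gene's mean over 14 libraries, for the 5 complexes and for cytosolic ribosomal proteins, in every library. The complexes lie close together in most libraries, with complex II apart in replicate 2 of the 189N3 littermates (0.15), and the libraries at the low end (Dp(16)1Yey replicate 2 and replicates 0 and 1 of its littermates) and at the high end (replicate 2 of 189N3 and of its littermates) include both genotypes.

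The first comparison asks what an extra copy of Dyrk1a does to these transcripts. In 189N3 no subunit gene was called as changed against the wild-type littermates. Limma called no locus at all in this comparison, so the lack of calls does not show that the subunits were unchanged. By limma with Benjamini-Hochberg adjustment, 0 of 74 genes passed an adjusted p of 0.05 (background over 35899 loci 0%), 0 had an unadjusted p under 0.05 (background 1.87%), and in 0 did the groups of 3 not overlap (background 4.98%). The other tools run, edgeR and DESeq2 on recovered fragments, also called 0 of the 74, with 0 at an unadjusted p under 0.05 (background 1.92% and 1.54%). Log2 fold changes ran from -0.78 to 0.12 with a median of -0.13, and 60 of 74 were below 0, where the median over all loci was -0.04. By complex the median was -0.12 in complex I, -0.08 in complex II, -0.14 in complex III, -0.14 in complex IV and -0.13 in complex V. The 7 core subunits of complex I had a median of 0.02 and its other 30 subunits -0.14. Of core subunits named here, log2 fold changes were 0.12 (SE 0.23) for Atp5b and 0.06 (SE 0.24) for Atp5a1. They were -0.10 (SE 0.26) for Uqcrfs1 and 0.05 (SE 0.24) for Ndufv1, which binds NADH, and each was smaller than its SE.

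The direction of this median rested on single libraries. It was 0.10 without 189N3 replicate 1, the library with the lowest subunit levels of that group, and -0.33 without replicate 2, the highest. Without replicate 2, 9 of 74 genes (12.2%) had an unadjusted p under 0.05 by limma, against 4.28% of all loci in the same fit, and none passed adjustment. All 8 tested erythroid markers had lower means in 189N3 (median log2 fold change -1.32), with an unadjusted p under 0.05 in all 8 and no adjusted call by limma. The same direction was seen in all 6 tested muscle markers (median -0.99), all 6 skin markers (-1.52) and all 5 connective tissue markers (-1.10), and all 10 neuronal markers were above 0 (0.21). The erythroid list (9 of 11 named, none at 0 throughout) summed to between 13943 and 22261 in 189N3 and between 34028 and 54488 in the littermates, and the part of these cell types in the subunit values was not tested. The 77 cytosolic ribosomal proteins were all below 0 as well, with a median of -0.23, and none passed the test.

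Ndufa11, which helps to hold the membrane arm of complex I together, stood at 426, 326 and 590 in 189N3 and at 488, 549 and 671 in the littermates. Replicate 2 of 189N3 lay above a pair of the 3 littermates, so the groups overlapped. Its log2 fold change was -0.38 (SE 0.27, adjusted p = 1.00 by limma, unadjusted p = 0.176), and -0.60 without replicate 2 of 189N3 or -0.17 without replicate 1. Relative to the median subunit of each library, Ndufa11 lay below all littermates (log2 difference -0.26). On that scale other genes lay above all littermates, among them Atp5b (0.24). Both had an exact permutation p of 0.10, the smallest possible here, and the share over all loci was not taken on this scale. Cox6b2, the testis isoform named above, stood at 3.38, 11.4 and 14.5 in 189N3 and at 20.8, 8.12 and 20.5 in the littermates. These are few fragments, and 1 littermate fell among the 189N3 libraries (log2 fold change -0.78, SE 0.52, unadjusted p = 0.155). With 1 library left out it ranged from -1.20 (without littermate replicate 1) to -0.23 (without 189N3 replicate 0). The other 8 genes with the smallest p-values were Ndufa4l2, Ndufa7, Cox5b, Ndufs6, Uqcrq, Ndufb7, Uqcr10 and Atp5e, with log2 fold changes between -0.46 and -0.24. Without 189N3 replicate 2 these lay between -0.83 and -0.39. Without 189N3 replicate 1, Uqcrq, Ndufb7 and Uqcr10 were all between 0.0068 and 0.0082.

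The second comparison asks the same of the triplicated chromosome 16 region. In Dp(16)1Yey no subunit gene was called either, and limma called no locus at all here too. By limma, 0 of 74 genes passed an adjusted p of 0.05 (background over 36024 loci 0%), 0 had an unadjusted p under 0.05 (background 3.53%), and in 0 did the groups of 4 not overlap (background 2.45%). The edgeR and DESeq2 fits again called 0 of the 74, with 0 at an unadjusted p under 0.05 (background 3.67% and 3.66%). Log2 fold changes ran from -0.80 to 0.35 with a median of 0.09, and 54 of 74 were above 0, where the median over all loci was 0.03. By complex the median was 0.09 in complex I, 0.01 in complex II, 0.17 in complex III, 0.08 in complex IV and 0.10 in complex V. Leaving out replicate 1 of Dp(16)1Yey turned the median over the 74 genes to -0.09, and with the nearly alike littermates averaged it was 0.09. Of the same core subunits, Atp5b had a log2 fold change of -0.12 (SE 0.19), Uqcrfs1 of 0.05 (SE 0.20) and Ndufv1 of -0.08 (SE 0.20). The sum of 9 erythroid markers lay between 6162 and 55948 in Dp(16)1Yey and between 4733 and 17430 in the littermates. The sum of muscle markers lay between 42.5 and 683 and between 46.4 and 88.0. Both lists were highest in the library labelled replicate 1. The median deviation of 8 erythroid markers was 2.02 there and -1.50, -0.09 and 0.50 in replicates 0, 2 and 3. For 6 muscle markers it was 2.58 there and -1.44, -0.76 and 0.31 in the same replicates. The part of either list in the subunit values was not tested.

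Ndufa4l2 had the smallest unadjusted p of the 74 genes. It stood at 20.8, 9.40, 5.10 and 7.04 in Dp(16)1Yey replicates 0 to 3 and at 11.3, 10.9, 28.1 and 23.3 in the littermates. Replicate 0 of Dp(16)1Yey lay among the littermates and the other 3 below them (log2 fold change -0.80, SE 0.46, adjusted p = 0.909 by limma). Uqcrq stood at 111, 110, 63.3 and 85.5 in Dp(16)1Yey and at 45.3, 64.3, 83.1 and 101 in the littermates, with overlapping groups (log2 fold change 0.35, SE 0.28, adjusted p = 0.909 by limma). It was 0.15 without littermate replicate 0 and 0.53 without littermate replicate 3. Relative to the median subunit of each library, only Uqcrq (log2 difference 0.38) and Ndufb3 (0.27) of the 74 genes lay apart from all littermates. Both lay above them. Each had an exact permutation p of 0.0286, the smallest that 4 against 4 can give, which counts the nearly alike littermates as 4 samples. Among 74 genes such a p can be reached without any change. The share over all loci was not taken on this scale. Ndufs1, the largest core subunit of complex I, stood at 2206, 3192, 2158 and 2158 and at 1826, 1917, 2374 and 2322 in the littermates. Within Dp(16)1Yey the library labelled replicate 1 was high and the other 3 lay among the littermates, and its log2 fold change was 0.19 (SE 0.18) with that library and 0.05 without it. The other 7 genes with the smallest p-values were Ndufs4, Uqcrc2, Ndufb3, Atp5h, Ndufa10, Uqcrb and Ndufa5, between -0.15 and 0.24 with that library and between -0.18 and 0.07 without it.

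**Figure D3:**
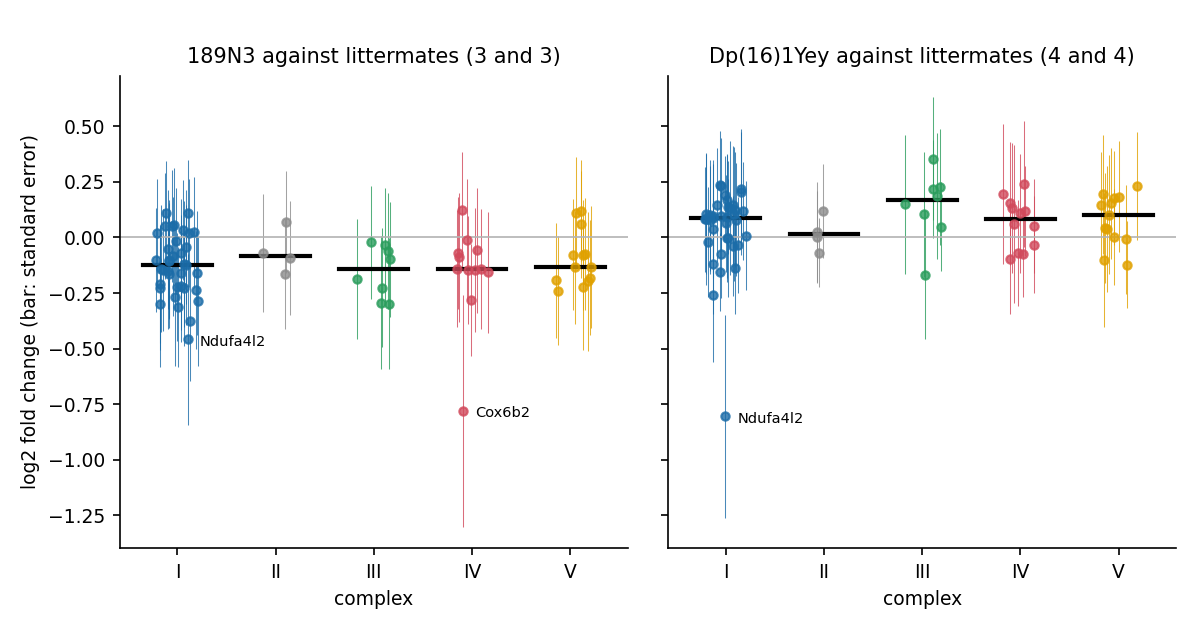
Log2 fold change of each tested subunit gene against wild-type littermates, by complex, in 189N3 (left) and Dp(16)1Yey (right). Points are genes, thin bars limma standard errors and thick lines medians, which lie between -0.14 and -0.08 on the left and between 0.01 and 0.17 on the right.

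**Figure D4:**
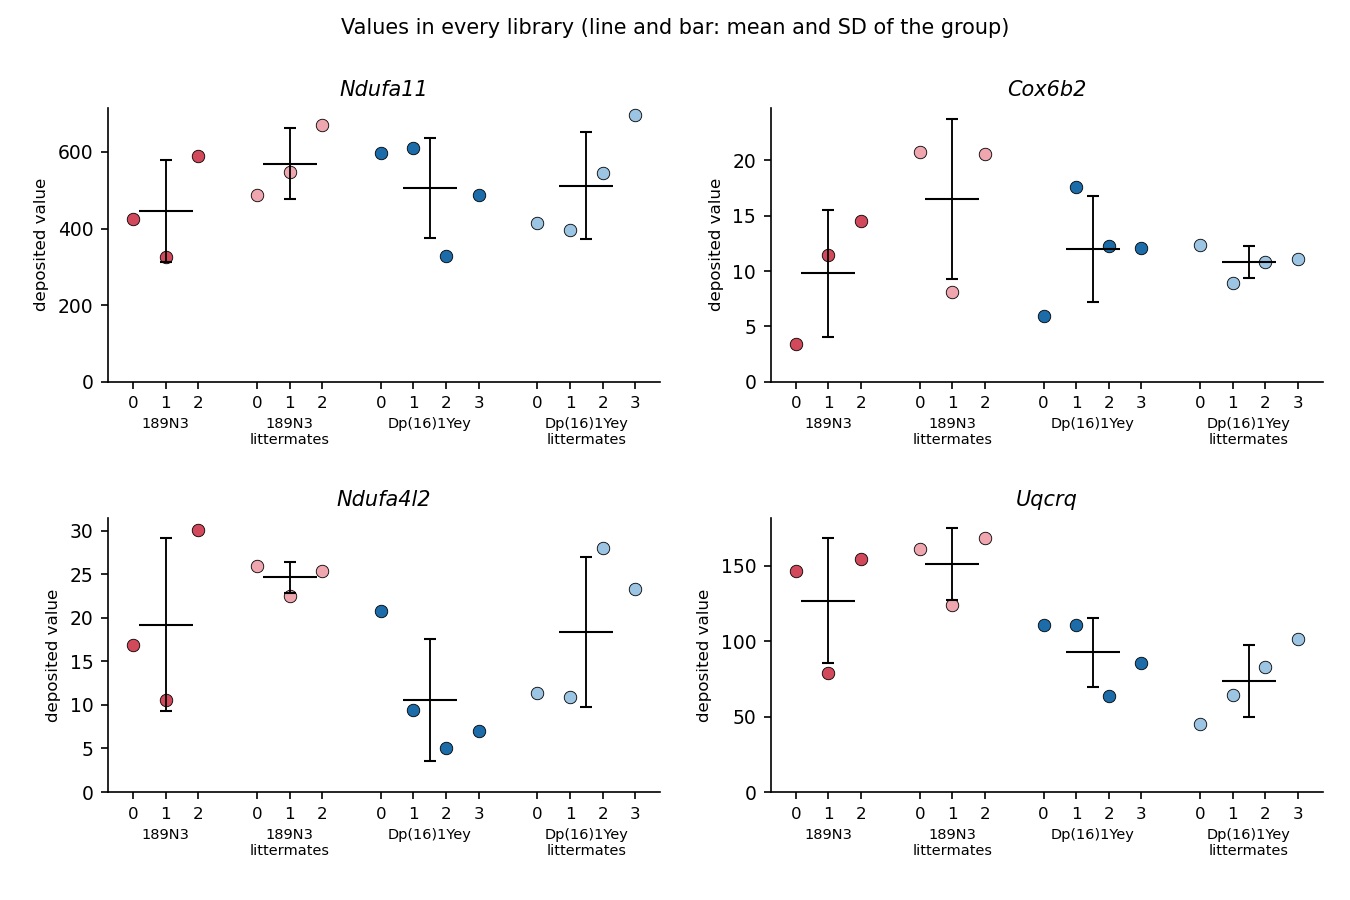
Deposited values of Ndufa11, Cox6b2, Ndufa4l2 and Uqcrq in every library, with the mean and SD of each group. In all 4 genes the transgenic libraries overlap with those of their littermates, and Cox6b2 and Ndufa4l2 stay at or below 30.1 units.

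Both subunit genes inside the triplicated region were higher in Dp(16)1Yey than in every littermate library. Atp5o encodes OSCP, a subunit of the peripheral stalk of the ATP synthase, and Atp5j encodes coupling factor F6 of the same enzyme. Atp5o stood at 5408, 5216, 4464 and 5481 in Dp(16)1Yey and at 2852, 2925, 4338 and 4016 in the littermates, so that the groups did not overlap. Its log2 fold change was 0.56 (SE 0.18), with an exact two-sided permutation p of 0.0286, the smallest that 4 against 4 can give, and an adjusted p of 0.909 by limma. Atp5j stood at 1592, 1521, 1452 and 1622 in Dp(16)1Yey and at 882, 858, 1200 and 1168 in the littermates, again without overlap (log2 fold change 0.61, SE 0.16, exact permutation p = 0.0286, adjusted p = 0.909 by limma). Averaging the nearly alike littermates left the fold changes at 0.56 and 0.61, whereas the permutation p counts these littermates as 4 samples. Of all loci, 2.45% had groups that did not overlap.

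Set against the median of the 13 other ATP synthase genes of the same library, Atp5o was higher by 1.62, 0.85, 1.82 and 1.60 on the log2 scale in Dp(16)1Yey and by 1.07, 1.15, 0.99 and 0.87 in the littermates. Replicates 0, 2 and 3 were thus above all littermates, and the library labelled replicate 1 was below all of them, which left an exact permutation p of 0.143. Atp5j followed the same pattern, with a difference between groups of 0.50 on this scale and 0.72 without the library labelled replicate 1. In 189N3, where both genes are present in the usual copy number, the differences on this scale were 0.02 for Atp5o and 0.11 for Atp5j. Gabpa, which encodes an ETS factor and also lies in the triplicated region, had a log2 fold change of 0.61 (SE 0.16, exact permutation p = 0.0286, adjusted p = 0.909 by limma) in Dp(16)1Yey. Its locus also holds Jam2, so this value covers both genes. The subunit genes with an ETS core in their promoters were not tested as a group.

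**Figure D5:**
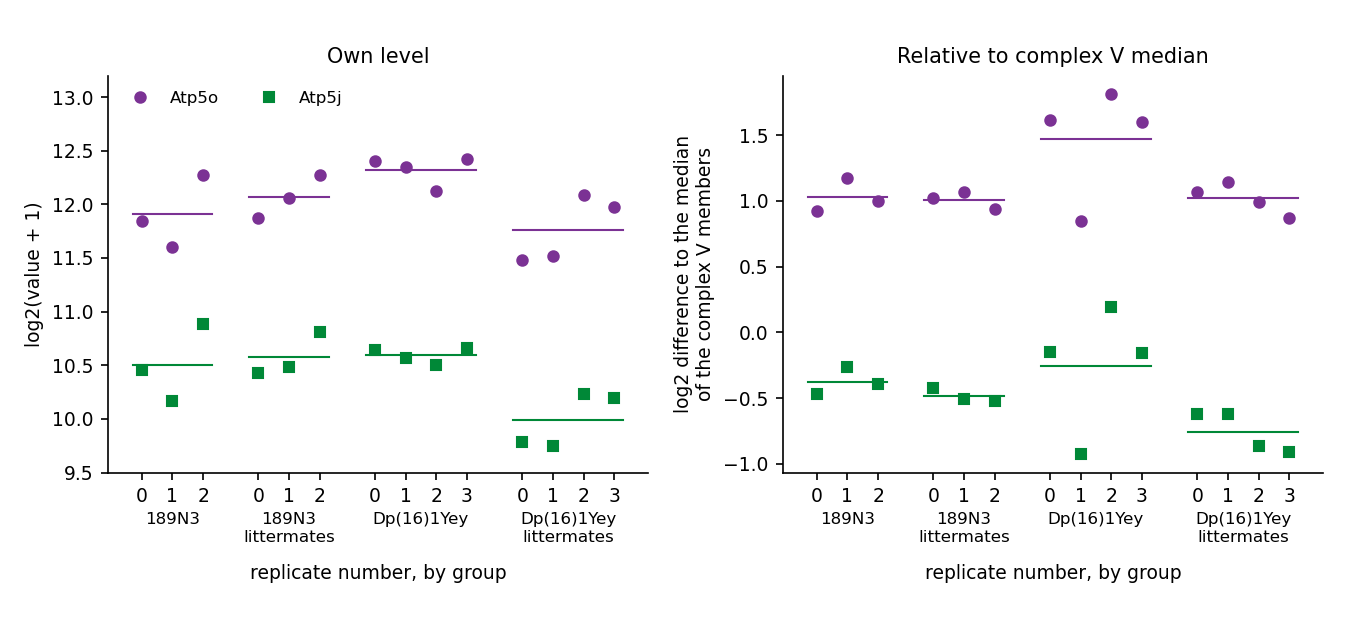
Level of Atp5o and Atp5j in every library (left, log2 of value + 1) and the difference to the median of the other ATP synthase genes of that library (right, log2). Lines are group means. On the right, Dp(16)1Yey replicate 1 lies at 0.85 for Atp5o and -0.93 for Atp5j, below its littermates.

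Whether the genotype effects differed was tested by an interaction term in 1 fit of the 4 groups. By limma 0 of 74 genes passed an adjusted p of 0.05 (background over 36045 loci 0%) and 0 had an unadjusted p under 0.05 (background 2.66%). The edgeR and DESeq2 fits also called 0 of the 74, with 0 at an unadjusted p under 0.05 (background 2.51% and 2.46%). The median difference, Dp(16)1Yey effect minus 189N3 effect, was 0.24 on the log2 scale, against 0.08 over all loci. It was 0.04 without 189N3 replicate 1. Uqcrq had the smallest p, with a difference of 0.65 (SE 0.43, adjusted p = 0.922 by limma), followed by Ndufs6 (0.47), Cox6b2 (0.84), Atp5e (0.42) and Ndufa7 (0.44). With 1 library left out these went down to 0.35 for Uqcrq and 0.22 for Ndufs6 (both without 189N3 replicate 1), 0.29 for Cox6b2 (without 189N3 replicate 0), and 0.20 for Atp5e and 0.23 for Ndufa7 (both without Dp(16)1Yey replicate 1).

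The median difference was larger between the wild-type littermates of both lines than between either model and its controls. In the littermates of Dp(16)1Yey, 64 of 74 subunit genes were below those of 189N3, with a median log2 difference of -0.44, against 0.07 over all loci. By limma none passed an adjusted p of 0.05 (background 0.105%), 20 had an unadjusted p under 0.05 (27.0%, background 17.5%), and in 15 the groups did not overlap (20.3%, background 25.4%). The last share was below the background. The edgeR fit called 0 of the 74 (background 0.128%) and had 20 at an unadjusted p under 0.05 (background 17.2%). DESeq2 called 1 of the 73 genes it gave an adjusted p, Uqcrq (1.37%, background 2.19%), and had 22 at an unadjusted p under 0.05 (29.7%, background 16.7%). Line, litter, age and handling cannot be told apart here. Uqcrq stood at 161, 124 and 168 in the littermates of 189N3 and at 45.3, 64.3, 83.1 and 101 in those of Dp(16)1Yey, without overlap (log2 difference -1.08, SE 0.30, adjusted p = 0.116 by limma). Ndufa5, Uqcrb and Ndufs6 followed, with log2 differences between -0.95 and -0.66. The locus named for Ndufv2 differed by -0.57 (unadjusted p = 0.00364 by limma), but it also holds Ankrd12, and its own transcripts, 27.7% of that locus, differed by -0.60 with an unadjusted p of 0.0752 by limma. With the nearly alike libraries averaged, 4 genes (5.41%) had an unadjusted p under 0.05, against 8.45% of all loci. The cytosolic ribosomal proteins were also lower, in 73 of 77 (median -0.49), with 10 at an unadjusted p under 0.05. Most markers of other tissues also had lower means. The medians were -2.43 for 6 muscle, -2.20 for 8 erythroid, -2.15 for 6 skin and -1.94 for 5 connective tissue markers. Of the erythroid markers, 2 were higher, with log2 differences up to 2.28, and all markers of the other 3 tissues were lower. Limma called 1 connective tissue marker. Of 11 progenitor markers, 9 were above 0 (median 0.41), and of 10 markers of hippocampus and cortex, 7 were (median 0.29). Of 10 neuronal markers, 8 were below 0 (median -0.30). The part of these groups in the subunit values was not tested.

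Other genes of the pathway gave no calls by limma in either model. As limma called no locus at all in these comparisons, this does not show that they were unchanged. Among 40 assembly factors, which build the complexes, the median log2 fold change was -0.01 in 189N3 and 0.05 in Dp(16)1Yey. Among 16 regulators of mitochondrial gene expression the median was 0.05 and -0.01. The Gabpa locus alone had an unadjusted p under 0.05 by limma in Dp(16)1Yey (1 of 16, background 3.53%). Ppargc1a, the coactivator known to drive mitochondrial biogenesis, had log2 fold changes of 0.15 and -0.12, and Tfam, which packages mitochondrial DNA, 0.11 and 0.20. The 16 TCA cycle genes had a median of 0.05 in 189N3 and -0.05 in Dp(16)1Yey, and the 17 glycolytic genes 0.01 and -0.14. Of further subunit and carrier genes outside the naming rule, 7 were tested in 189N3 (median -0.09) and 6 in Dp(16)1Yey (median 0.06), and none had an unadjusted p under 0.05. Cox4i1, the common form of the regulatory subunit of complex IV, had log2 fold changes of -0.09 and -0.03.

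Values of single transcripts are estimated shares of each locus. In all, 118 transcripts of these genes were tested in 189N3 and 116 in Dp(16)1Yey. In 189N3, 1 passed an adjusted p of 0.05 by limma (0.847%, background over 60141 transcripts 0.0366%) and 1 had an unadjusted p under 0.05 (background 2.56%). In Dp(16)1Yey none passed (background 0.0214%) and 1, a transcript of Uqcr11, had an unadjusted p under 0.05 (background 3.48%, log2 fold change -1.31, SE 0.52, adjusted p = 0.945). The edgeR and DESeq2 fits were not run on estimated shares.

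The transcript called in 189N3 was a minor form of Atp5a1 that differs from the annotated form in its junctions and made up 4.63% of the gene. It stood at 0.905, 7.01 and 3.62 in 189N3 and at 1406, 1772 and 508 in the littermates (log2 fold change -8.03, SE 0.69, adjusted p = 0.0467 by limma). It also varied widely within the other line, at 1.46, 45.4, 500 and 67.9 in Dp(16)1Yey and at 752, 923, 846 and 2.52 in their littermates, where a wild-type library was also close to 0. The main form of Atp5a1, 74.9% of the gene, stood between 6472 and 11166 in 189N3 and between 6464 and 8137 in the littermates. The whole gene stood at 10812, 8063 and 14296 in 189N3 and at 9667, 11140 and 10252 in the littermates, with overlapping groups. The call was lost with a pseudocount of 0.1, without the filter, with a stricter filter and with any library left out, and in these fits the log2 fold change lay between -8.58 and -7.48.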

How the data were processed

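Paired-end reads of total RNA libraries (polyA RNA per the labels) had been aligned to mm10 with TopHat and Bowtie by the authors, who quantified them against a merged Cufflinks assembly. Tool versions are not given in the sources used here. The deposited signal values of the gene table are fragments per locus divided by 1 factor per library (1 fragment is worth 0.816 to 1.21 units), and those of the isoform table are estimated shares of them. Within a tolerance of 0.1, at least 99.99% of nonzero gene values were whole multiples, so fragments could be recovered.

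Rows were matched to the deposited transcript map by requiring that the isoforms of a locus sum to its values, with 51831 of 59796 loci matched and 20296 named. Coordinates and lengths are from GENCODE vM21 (GRCm38) and promoters from RefSeq (GRCm38.p6).

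The scale was log2(value + 1). Loci averaging 10 or more in the compared samples entered limma 3.58.1 (R 4.3.3) with a trend and no covariate. Adjustment was by Benjamini and Hochberg over all loci at 0.05. Fold changes on this scale understate those of low genes. For single genes an exact permutation test (two-sided) was added, whose smallest p is 0.10 for 3 against 3 and 0.0286 for 4 against 4. As alternatives, edgeR 4.0.16 and DESeq2 1.42.0 were run on recovered fragments, beside other pseudocounts, filters, scalings and sample choices. The fit was tested on simulated data with independent noise for each gene. As genes also moved together between the real libraries, this does not show what could be detected in them. Genes given with values were the 10 with the smallest p in each model, core subunits, isoform pairs and the highest and lowest of each complex per length, while the leading genes of the interaction and littermate comparisons and single genes of the other lists were chosen after their values were seen. The genes and lists were chosen with earlier results of these data known. Genes whose locus holds another gene (Sdha, Ndufv2, Atp5j2 and Cox7a1) were also measured by their own transcripts. Values of 1 gene are not reported here.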

Additional observations from a re-analysis of the deposited data

Results flagged for a closer look

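Among 50 groups of 4 values checked for a sample far from the others, 1 stood out, where chance gives about 1 in 20. Ndufs1 stood at 3192 in the library labelled Dp(16)1Yey replicate 1 and between 2158 and 2206 in the other 3, a gap of 0.943 of the range on the log2 scale. For none of 25 values did every 189N3 library move one way and every Dp(16)1Yey library the other.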

How the results depend on the processing

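No subunit gene was called in either model under any setting run. The median log2 fold change over the subunits lay between -0.17 and -0.06 in 189N3 and between 0.06 and 0.11 in Dp(16)1Yey with all libraries kept, and changed sign when single libraries were left out, as given above. Loci called in 189N3 numbered 4 with median-ratio size factors, 15 with DESeq2 and 0 to 28 with 1 library left out. They numbered 8 in Dp(16)1Yey with DESeq2 and 0 to 3 with 1 library left out, and for the interaction 0 to 1. Subunits with an unadjusted p under 0.05 numbered 0 to 9 in 189N3 and 0 to 1 in Dp(16)1Yey with 1 library left out. In 189N3, Uqcrq then ranged from -0.47 to 0.0082, Ndufb7 from -0.55 to 0.0068 and Uqcr10 from -0.53 to 0.0081.

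Between the littermates of both lines, the loci called numbered 18 with a mean of at least 100, 112 with quantile normalization, 727 with DESeq2, 13 with the nearly alike libraries averaged, 58 over named loci only, and 15 to 318 with 1 library left out. DESeq2 called 1 subunit. Subunits with an unadjusted p under 0.05 numbered 4 with the alike libraries averaged and 4 to 31 with 1 library left out. The Atp5a1 transcript left 0 calls with a pseudocount of 0.1, no filter, a mean of at least 100 and any library left out. The cause of these changes was not tested. Settings for isoforms, shared loci and relative levels were chosen after seeing the data.

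Same-numbered libraries correlated between -0.32 and -0.03 in 189N3 and between -0.45 and -0.07 in Dp(16)1Yey, so the numbers do not pair them. With the replicate block 72 loci were called in 189N3 and 22 between the littermates, 0 subunits in any comparison, and 0 transcripts of Atp5a1. Few libraries and the spread between them limit what could be detected.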
